A study of Rattus norvegicus with 8 samples.

Results

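The ribosomal S6 kinase genes of the rat hypothalamus were measured at their mRNA 3′ ends, with Rps6kc1 described first because its reads separated rats with diet-induced obesity from controls. The members were every protein-coding gene whose symbol begins with Rps6k, which gave 10 genes with 52 polyadenylation sites, of 12255 genes and 73922 sites in the table. The family was chosen by the measured values of Rps6kc1 itself. The genes ranked were higher in obesity, with no overlap between groups and a mean of at least 10 CPM (scaled reads, defined below). Among these genes, Rps6kc1 had the second smallest p of the comparison between diets. The log2 fold changes of the 3 genes at that end were 3.31 for Arse, 0.90 for Rps6kc1 and 1.32 for Rnf123, and the next gene outside was Ttll11 at 1.11. The difference of Rps6kc1 between the diets is therefore a description and carries no test, and the other 9 members entered by their names.

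The S6 kinases are serine/threonine kinases of growth and nutrient signalling. Rps6kb1 and Rps6kb2 encode the S6 kinases proper, which phosphorylate ribosomal protein S6 and other parts of the translation machinery. The Rps6ka genes encode the RSK and MSK kinases, which act below the MAP kinases ERK and, for the MSKs, p38. In the hypothalamus this signalling responds to nutrients and leptin, and phosphorylated S6 is widely used as a mark of active neurons. Rps6kc1 and Rps6kl1 are the outlying members: Rps6kc1 encodes a protein with a lipid-binding PX domain beside its kinase-like region, reported to bind Sphk1 and Prdx3, and Rps6kl1 encodes a kinase-like protein whose role is little known.

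All animals were adult male rats of the outbred Long-Evans strain. The control group (n = 4) ate standard chow with 0.51 kcal/g from fat, and the group with diet-induced obesity (n = 4, called obesity here) ate a high fat diet with 1.71 kcal/g from fat without restriction. Hypothalamus was taken after 36 days, and each rat gave 1 library. The design compared diets in whole tissue of 1 strain and 1 sex, so a change in cell number and a change in RNA per cell cannot be told apart. The assay, WTTS-seq (whole transcriptome termini site sequencing), counts reads at the 3′ ends of polyadenylated RNA, so a transcript is counted by its end whatever its length, and levels of different genes were compared without a length correction.

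Library totals ran from 1417531 to 1957726 reads, and the median site of the table held 57 reads over all 8 libraries. Control library 1 and obesity library 1 had 14788 and 10659 sites without a read, against 4062 to 6622 in the other libraries. All 12 hypothalamic markers were measured, and 8 had log2 fold changes below 0. Their sums were 1241 to 1673 CPM in control and 1017 to 1292 CPM in obesity (CPM, read counts scaled to the TMM-adjusted library size). Of the 12 oligodendrocyte markers 11 had log2 fold changes below 0, with sums of 17770 to 23230 CPM in control and 13750 to 21560 CPM in obesity. Of the 9 astrocyte markers 7 lay below 0 (3506 to 4723 against 2548 to 4023 CPM). Of the 4 measured neuronal markers 2 lay below 0 (2154 to 2839 against 2217 to 2851 CPM). The sums of each of these lists overlapped between the groups. Of the other lists, 3 of 7 microglial markers (74.4 to 114.6 against 30.04 to 101.5 CPM), 4 of 4 thalamic markers (128.9 to 218.6 against 75.1 to 241.9 CPM) and 1 of 4 red blood cell markers (8.03 to 24.1 against 15.0 to 32.7 CPM) were measured. The 3 measured anterior pituitary markers summed to 17.9 to 56.0 CPM in control and 6.13 to 126.6 CPM in obesity, the highest in obesity library 2, and Ttr, of the choroid plexus list, ran from 0 to 1.52 CPM in control and from 0 to 98.0 CPM in obesity, the highest in obesity library 4. The part of these differences in the values below was not tested, and Rps6kc1 is therefore also given without each library.

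Rps6kc1 (gene28916) had the highest mean gene sum of the members over the 8 libraries, a rank that includes the difference on which it was chosen. In control alone its mean was 95.6 CPM, against 89.97 CPM for Rps6kb2, with overlap. Its 11 sites on the minus strand of chromosome 13 (Rnor_6.0) had 122, 156, 115 and 129 reads in control libraries 1 to 4, and 247, 195, 271 and 311 reads in obesity libraries 1 to 4. Scaled as gene sums, these were 86.4, 104.4, 93.5 and 98.0 CPM in control and 185.5, 158.3, 158.8 and 211.7 CPM in obesity. Every obesity library lay above every control library, which was a condition of the choice of Rps6kc1. The lowest obesity library was well clear of the highest control library. Mean levels were 95.6 ± 7.57 CPM (SD, n = 4) in control and 178.6 ± 25.5 CPM (SD, n = 4) in obesity, a 1.87-fold ratio, and the fitted log2 fold change was 0.90 (SE 0.21). Between libraries with the same number the ratio of obesity to control was 2.15, 1.52, 1.70 and 2.16. With each library left out in turn, given as a description only, the log2 fold change stayed between 0.83 and 0.96. It was 0.95 without obesity library 2, which had the high pituitary sum, 0.83 without obesity library 4, which had the high Ttr level, and 0.86 without control library 1.

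**Figure D1:**
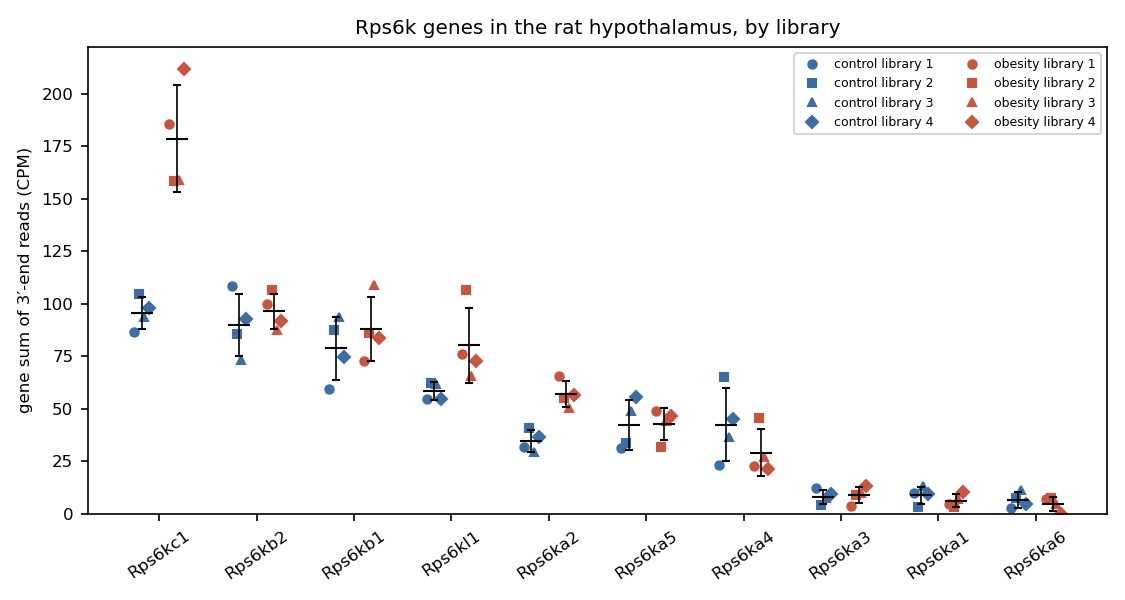
The gene sum of each Rps6k gene in CPM (vertical axis) by library, with genes ordered by mean level. Blue points are control libraries 1 to 4, red points obesity libraries 1 to 4, and bars give mean ± SD (n = 4). Rps6kc1 runs from 86.4 to 104.4 CPM in control and from 158.3 to 211.7 CPM in obesity, while the groups overlap for 7 of the other 9 genes.

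Rps6kc1 also took a larger share of the reads of the family in obesity. The family as a whole had 5922 reads on the main strands, of which Rps6kc1 held 26.1%. Its share was 20.5% ± 0.48 (SD, n = 4) in control, where the libraries ran only from 19.97% to 21.1%, and 30.2% ± 3.90 (SD, n = 4) in obesity, where they ran from 26.0% to 34.9%. The other 9 genes together summed to 369.8 ± 24.9 CPM in control and 412.8 ± 25.5 CPM in obesity. These shares rest on the reads that chose the family and are given without a test.

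The reads of Rps6kc1 were spread over 232.9 kb. The most abundant site, chr13:109379203-109379208 on the minus strand, held 47.3% of the reads and was the fifth of the 11 sites counted from the 3′ end, 33.1 kb before the most 3′ site. Its reads were 53, 73, 54 and 68 in control and 110, 110, 143 and 120 in obesity, again without overlap. On the gene-sum scale this site went from 45.5 ± 6.20 to 84.3 ± 3.41 CPM (SD, n = 4 each), a ratio of 1.85. The other 10 sites together went from 50.1 ± 3.89 to 94.2 ± 28.1 CPM, a ratio of 1.88, so that the most abundant site made up 46.8% of the difference of the gene and the rest 53.2%. The obesity libraries were closely grouped at the most abundant site and widely spread over the other sites.

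The ratios of upstream and downstream sites were less alike, which is given as a description without a test. The 4 sites 3′ of the most abundant site went from 26.4 ± 3.02 to 58.3 ± 21.2 CPM (SD, n = 4 each, gene-sum scale), a ratio of 2.21 without overlap of the groups. The 6 sites 5′ of it went from 23.7 ± 6.14 to 35.9 ± 17.0 CPM, a ratio of 1.52, and the groups overlapped. Obesity library 4 contributed much of the spread downstream: it had 132 reads at the 4 sites 3′ of the most abundant site, against 61, 64 and 78 in obesity libraries 1 to 3, while control libraries had 34 to 38. Among single sites, 9 of 11 had log2 fold changes above 0, with a range from -0.43 to 1.36 and a median of 1.05.

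Of the named downstream sites, the most 3′ site at chr13:109346098-109346106 went from 4.36 ± 2.53 to 11.3 ± 5.42 CPM on the site scale (SD, n = 4 each), where library totals include all sites. The site at chr13:109358872-109358874 went from 7.34 ± 3.60 to 16.8 ± 9.66 CPM, and the site at chr13:109371349-109371351 from 7.84 ± 4.81 to 17.8 ± 9.02 CPM. Groups overlapped at each of these 3 sites, and the most abundant site, at 39.1 ± 6.51 against 69.5 ± 6.05 CPM on the same scale, was the only Rps6kc1 site where they did not. As a share of all Rps6kc1 reads, the most abundant site held 47.5% ± 3.85 for control and 48.1% ± 8.04 for obesity (SD, n = 4 each). The control libraries ranged from 43.4% to 52.7% and the obesity libraries from 38.6% to 56.4%, so the groups overlapped in this share.

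**Figure D2:**
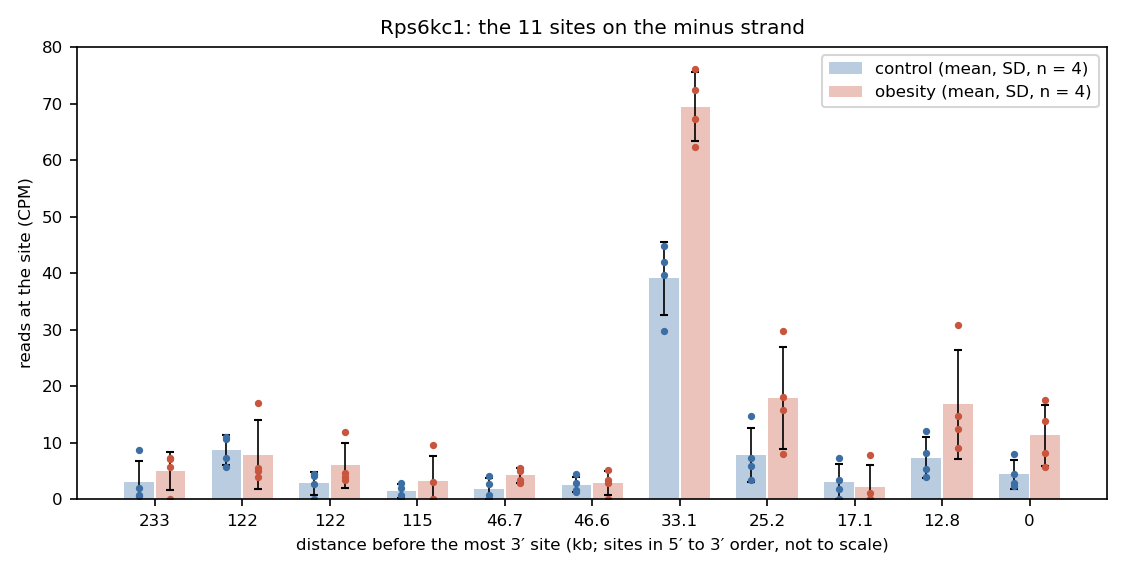
Reads in CPM on the site scale (vertical axis, starting at 0) at the 11 minus-strand sites of Rps6kc1, ordered 5′ to 3′ and named by their distance in kb before the most 3′ site (not to scale). Bars are means of 4 control (blue) and 4 obesity (red) libraries, whiskers SD and points single libraries. The site 33.1 kb before the end stands at 39.1 CPM in control and 69.5 CPM in obesity, and its groups do not overlap.

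Sites on the opposite strand were also assigned to Rps6kc1. These 3 plus-strand sites held 257 reads, 14.3% of the reads of both strands, and had 22.2 ± 10.1 CPM in control and 24.1 ± 2.11 CPM in obesity (SD, n = 4 each, gene-sum scale). They lay on either side of the 2 plus-strand sites of Angel2 (109519149 to 109520975). The most 5′ minus-strand site, chr13:109579033-109579044 with 57 reads, lay beyond the sites of Vash2 (109522373 to 109530087), and without it the log2 fold change of Rps6kc1 was 0.90. Without the most abundant site it was 0.91, and with both strands summed and the library number as a block it was 0.78. Of 6 genes around Rps6kc1, log2 fold changes were 0.10 for Smyd2, 0.14 for Angel2 and -0.10 for Vash2. They were 0.11 for LOC108348225, 0.42 for Tatdn3 and -0.24 for Nenf. The SEs were 0.25 to 0.83, and the groups overlapped for all 6. These genes are not all adjacent: the sites of Smyd2 ended at 108658812 and those of Nenf began at 109990290. Rps6kc1 was chosen for its difference, so nothing about the region is read from these values.

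Over the whole family, 7 of 10 members had a log2 fold change above 0 and 3 below, with a median of 0.12, against 6134 above and 6121 below with a median of 0.0007 over all genes. In the edgeR quasi-likelihood test, 0 members passed an adjusted p of 0.1, as did 0 of 12255 genes (0%). At an unadjusted p under 0.05 there were 2 members, Rps6kc1 and Rps6ka2, against 5.12% of all genes. Groups did not overlap for 3 members, Rps6kc1, Rps6ka2 and Rps6kl1, against 3.45% of all genes. Without Rps6kc1 these counts were 1 and 2 of 9. With the library number as a block 34 genes (0.277%) passed the threshold, and Rps6kc1 was the 1 member among them, as it was by DESeq2, where 4 genes passed. Nothing is read from those calls, since its difference chose the family. The other 9 members had a median of 0.10, with 6 above and 3 below 0, and 0 of them passed by edgeR, with the block or by DESeq2.

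Among the RSK genes, Rps6ka2 (gene586), which encodes RSK3, was the member closest to Rps6kc1. It had 45, 61, 36 and 48 reads in control and 87, 68, 86 and 83 in obesity, or 31.9, 40.8, 29.3 and 36.5 CPM against 65.3, 55.2, 50.4 and 56.5 CPM as gene sums. The groups did not overlap, so obesity was necessarily higher in 4 of 4 same-numbered pairs. The log2 fold change was 0.71 (SE 0.28, 95% interval 0.13 to 1.29), with an unadjusted p of 0.0193 and an adjusted p of 0.921 over all genes (edgeR). The adjusted p was 0.287 with the library number as a block, and 0.287 to 1.00 over all alternatives, so the difference did not pass the threshold in any of them.

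Rps6ka2 was spread thinly over 8 sites on chromosome 1. Its most abundant site, chr1:53452819-53452846 on the plus strand, held 27.4% of its reads and had 10.2 ± 5.95 CPM in control and 10.9 ± 6.69 CPM in obesity on the site scale (SD, n = 4 each). The site at chr1:53229086-53229097, 238.9 kb before the most 3′ site, had 3.69 ± 3.05 CPM in control and 11.4 ± 3.85 CPM in obesity. Its log2 fold change was 1.63 (SE 0.67), at an unadjusted p of 0.0283 and an adjusted p of 1.00 (edgeR, all sites). Its groups overlapped, and its share of Rps6ka2 reads ran from 3.28% to 30.6% in control and from 13.8% to 31.3% in obesity. The sites at chr1:53220534-53220540 and chr1:53309320-53309329, with 61 and 53 reads, had log2 fold changes of 0.73 (SE 0.98) and -0.32 (SE 0.87).

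The other RSK genes were low. Rps6ka3, which encodes RSK2, had 8.12 ± 3.36 CPM in control and 8.89 ± 3.82 CPM in obesity (SD, n = 4 each, gene-sum scale). Rps6ka1, which encodes RSK1, had 8.85 ± 4.03 and 6.25 ± 3.07 CPM. Rps6ka6, which encodes RSK4, had 6.53 ± 3.73 and 4.69 ± 3.32 CPM. With 61 to 96 reads over all libraries, these 3 genes could show only large differences: the 95% intervals of their log2 fold changes ran from -1.13 to 1.40 for Rps6ka3, from -1.84 to 0.88 for Rps6ka1 and from -2.34 to 1.39 for Rps6ka6. Rps6ka6 had 0 reads in obesity library 4, against 4 to 14 in the others, and a count of 0 does not show that the transcript was absent there.

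The MSK genes encode nuclear kinases that phosphorylate CREB and histone H3. Rps6ka5, which encodes MSK1, had 44, 50, 60 and 73 reads in control and 65, 39, 75 and 68 in obesity, and its log2 fold change was 0.02 (SE 0.31, 95% interval -0.63 to 0.67). Rps6ka4, which encodes MSK2 and had a single site at chr1:222087327-222087337, had 33, 97, 45 and 59 reads in control and 30, 56, 46 and 31 in obesity. Rps6ka4 was lower in obesity in 4 of 4 same-numbered pairs, but the groups overlapped widely and the log2 fold change of -0.55 (SE 0.37) had an adjusted p of 0.942 (edgeR). The control libraries of Rps6ka4 alone ran from 23.4 to 64.9 CPM, so its spread within a group was as large as its difference.

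The S6K genes were abundant and had log2 fold changes near 0. Rps6kb1, which encodes S6K1, had 84, 131, 115 and 98 reads in control and 97, 106, 186 and 123 in obesity, or 78.8 ± 15.1 against 87.9 ± 15.2 CPM (SD, n = 4 each), with a log2 fold change of 0.16 (95% interval -0.35 to 0.67). Rps6kb2, which encodes S6K2, had 153, 128, 90 and 122 reads in control and 133, 131, 149 and 135 in obesity, or 89.97 ± 14.7 against 96.4 ± 8.46 CPM, with a log2 fold change of 0.10 (95% interval -0.38 to 0.57). Groups overlapped for both genes. These intervals leave room for changes of moderate size in either direction.

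Rps6kb1 and Rps6kb2 used their sites differently. Rps6kb2 ended mostly at its most 3′ site, chr1:219406182-219406209 on the minus strand, which held 86.5% of its reads, with 66.8 ± 17.7 CPM in control and 67.3 ± 10.2 CPM in obesity on the site scale (SD, n = 4 each). Rps6kb1 had 8 sites on chromosome 10, and its most abundant site, chr10:73863329-73863357 with 36.7% of the reads, was its most 5′ site, 39.5 kb before the most 3′ site. Near the 3′ end of Rps6kb1 the sites starting at 73824686, 73824743, 73825037 and 73827350 held 10.2% to 11.9% of the reads each.

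An S6K site of each gene was seen almost only in the libraries numbered 2. The Rps6kb2 site chr1:219412782-219412784 had 45 reads in control library 2, 53 in obesity library 2, 2 in obesity library 4 and 0 in the other libraries, so that 98% of its reads came from the libraries numbered 2. The Rps6kb1 site chr10:73828396-73828404 had 24 reads in control library 2, 25 in obesity library 2, 1 in control library 4 and 4 in obesity library 4, or 90.7% from the libraries numbered 2. These sites therefore separated numbers and not diets, and without them the log2 fold changes were 0.14 for Rps6kb1 and 0.05 for Rps6kb2. The labels do not say what libraries with the same number share.

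**Figure D3:**
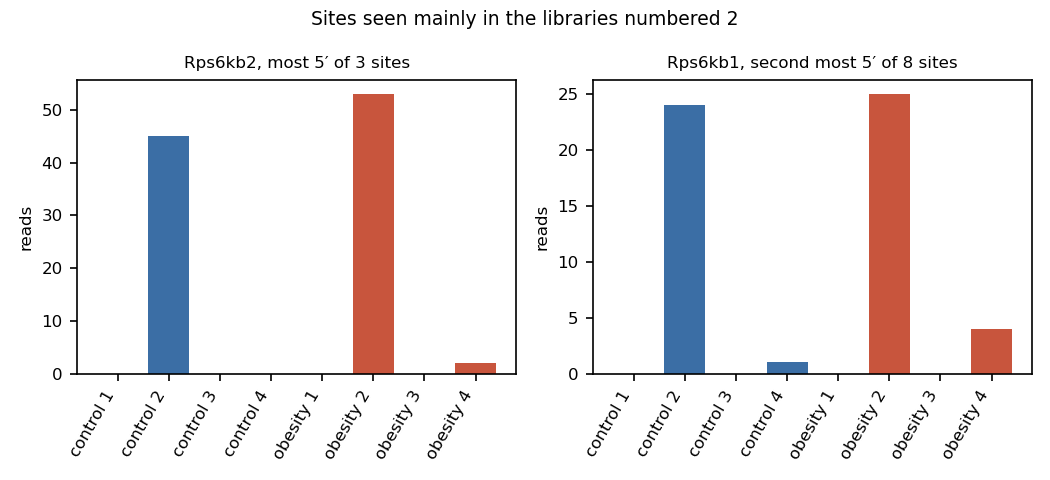
Reads per library (vertical axis, starting at 0) at the Rps6kb2 site starting at 219412782 and the Rps6kb1 site starting at 73828396, with control libraries in blue and obesity libraries in red. Only control library 2 and obesity library 2 stand high, with 45 and 53 reads in Rps6kb2 and 24 and 25 reads in Rps6kb1.

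Rps6kl1 had 77, 93, 76 and 72 reads in control and 101, 131, 112 and 107 in obesity, from 5 sites on chromosome 6. As gene sums these were 54.5, 62.2, 61.8 and 54.7 CPM against 75.9, 106.3, 65.6 and 72.8 CPM. The groups did not overlap, but the gap between them was small. The log2 fold change was 0.46 (SE 0.25, 95% interval -0.07 to 0.98), with an adjusted p of 0.921 (edgeR) and 0.494 to 1.00 over all alternatives, and it was 0.29 without obesity library 2, the highest. Its most 3′ site, chr6:108961247-108961254 on the minus strand, carried most of this: it went from 19.6 ± 2.81 to 32.1 ± 6.80 CPM on the site scale (SD, n = 4 each) without overlap, and its log2 fold change was 0.71 (SE 0.37, edgeR adjusted p 1.00). The site at chr6:108969264-108969296 had 21.5 ± 3.38 and 23.4 ± 7.48 CPM.

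Over the 52 sites of the family, 0 passed an adjusted p of 0.1 by edgeR, with the block or by DESeq2, against 0.00135% of all sites by edgeR. At an unadjusted p under 0.05 there were 3 sites, against 3.14% of all sites, and groups did not overlap at 2 sites, against 3.11% of all sites. Sites of Rps6kc1, on whose difference the family was chosen, made up 2 of the 3 and 1 of the 2. Among the 38 sites of the other members, 1 site, of Rps6ka2, had an unadjusted p under 0.05 and 1 site, of Rps6kl1, had no overlap between groups. The sites were shallow: 35 of the 52 had fewer than 100 reads in all, and 27 had reads in all 8 libraries. For site usage, which asks whether reads move between the sites of a gene, 8 members had at least 2 sites. Of these, 0 passed the diffSpliceDGE test of edgeR, against 0% of 7996 genes, and 0 had an unadjusted p under 0.05, against 1.36%. Outside Rps6kc1 the adjusted p was 1.00 for each of the 7 other genes (edgeR).

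The order of the members by mean gene sum over the 8 libraries was Rps6kc1 at 137.1, Rps6kb2 at 93.2, Rps6kb1 at 83.3, Rps6kl1 at 69.2, Rps6ka2 at 45.7, Rps6ka5 at 42.4, Rps6ka4 at 35.7, Rps6ka3 at 8.51, Rps6ka1 at 7.55 and Rps6ka6 at 5.61 CPM. The 8 neighbouring pairs below Rps6kc1 were compared within libraries by a 2-sided exact permutation test of the signs, where the smallest possible p is 0.00781. Rps6kl1 lay above Rps6ka2, and Rps6ka4 above Rps6ka3, in 8 of 8 libraries (exact permutation p = 0.00781, adjusted p = 0.0312 each). The other 6 pairs had adjusted p of 0.188 to 0.641 by the same exact test, so their order was not resolved. This test takes the 8 libraries as independent. With same-numbered libraries counted as 1 unit, 4 units remain, the smallest possible 2-sided exact p is 0.125, and no step in the order could pass. Rps6kc1 lay above Rps6kb2 in 3 of 4 control libraries and 4 of 4 obesity libraries. By the most abundant site alone, Rps6kb2 came first at 67.0 CPM and Rps6kc1 next at 54.3 CPM on the site scale, since Rps6kc1 reads were divided among more sites.

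Rps6kc1 had the most sites of the family. Its 11 sites compare with a median of 4 over the members and 2 over all genes, and 10.1% of all genes had more than 10 sites. The median member had 494 reads, against 225 for all genes, and the median share of the most abundant site was 46.1% in the family and 49.7% in all genes.

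The genes whose levels ran most like those of Rps6kc1 over the 8 libraries were Fgf13, an intracellular regulator of sodium channels (Pearson r 0.967, Spearman rho 0.905), Nmnat2, an NAD-synthesising enzyme of axons (r 0.961, rho 0.929), and Pip5k1b, a phosphoinositide kinase (r 0.959, rho 0.952). They were taken from 6137 genes with a mean of at least 20 CPM. At the other end stood Elfn2 (r -0.950, rho -0.952) and Idh3B (r -0.941, rho -0.952). Without obesity library 4 and control library 1, the libraries farthest from the Rps6kc1 median on the log2 scale used for r, it was 0.980 for Fgf13, 0.969 for Nmnat2, 0.934 for Pip5k1b, -0.918 for Elfn2 and -0.886 for Idh3B. All of these points include the diet groups on which Rps6kc1 was chosen, and the 5 genes had no overlap between those groups, so r is a description only. Within the family, r with Rps6kc1 was 0.94 for Rps6ka2, 0.67 for Rps6kl1 and between -0.46 and 0.30 for the other 7 members.

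The kinases and complexes above the S6 kinases, and their substrates, were read from the same comparison. Of 34 genes listed by their known roles, 27 were measured: 19 had log2 fold changes above 0 and 8 below, with a median of 0.17, and 0 passed the threshold by edgeR, with the block or by DESeq2. The upstream genes had 14 of 18 above 0 (median 0.21), and the substrates and effectors 5 of 9 (median 0.05). Rps6, Akt1, Mapk11, Eif4ebp1, Nr4a1, Sphk1 and Prdx3 had no value under these symbols and were not analysed. The substrates summarised here therefore do not include ribosomal protein S6. At an unadjusted p under 0.05 there were 3 of 27 pathway genes, 2 higher and 1 lower, against 5.12% of all genes. Groups did not overlap for 1 of 27, Map2k2, against 3.45% of all genes, a share near the background.

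Of the 5 named pathway genes, 4 encode kinases of the MAP kinase branch. Map2k2, which encodes the ERK-activating kinase MEK2, had 592.9, 528.6, 655.9 and 652.8 CPM in control and 760.1, 727.3, 990.6 and 848.7 CPM in obesity, with 0.45 as its log2 fold change (SE 0.18, edgeR adjusted p 0.921). Mapk14, which encodes p38α, had 51.6 ± 14.1 and 84.8 ± 18.8 CPM (SD, n = 4 each), a log2 fold change of 0.72 (SE 0.28), and was higher in 4 of 4 same-numbered pairs. Mapk3, which encodes ERK1, had 34.7 ± 19.1 and 14.7 ± 9.40 CPM, a log2 fold change of -1.24 (SE 0.52), and was higher in obesity in 0 of 4 pairs, but its groups overlapped. The adjusted p of Mapk14 and Mapk3 was 0.921 as well (edgeR). With the library number as a block the edgeR adjusted p was 0.162 for Map2k2, 0.239 for Mapk14 and 0.23 for Mapk3. None of these passed the threshold. Map2k1, which encodes MEK1, had a log2 fold change of 0.47 (SE 0.27), and Bad, a cell-death protein that RSK and S6K1 phosphorylate, one of -0.68 (SE 0.60).

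**Figure D4:**
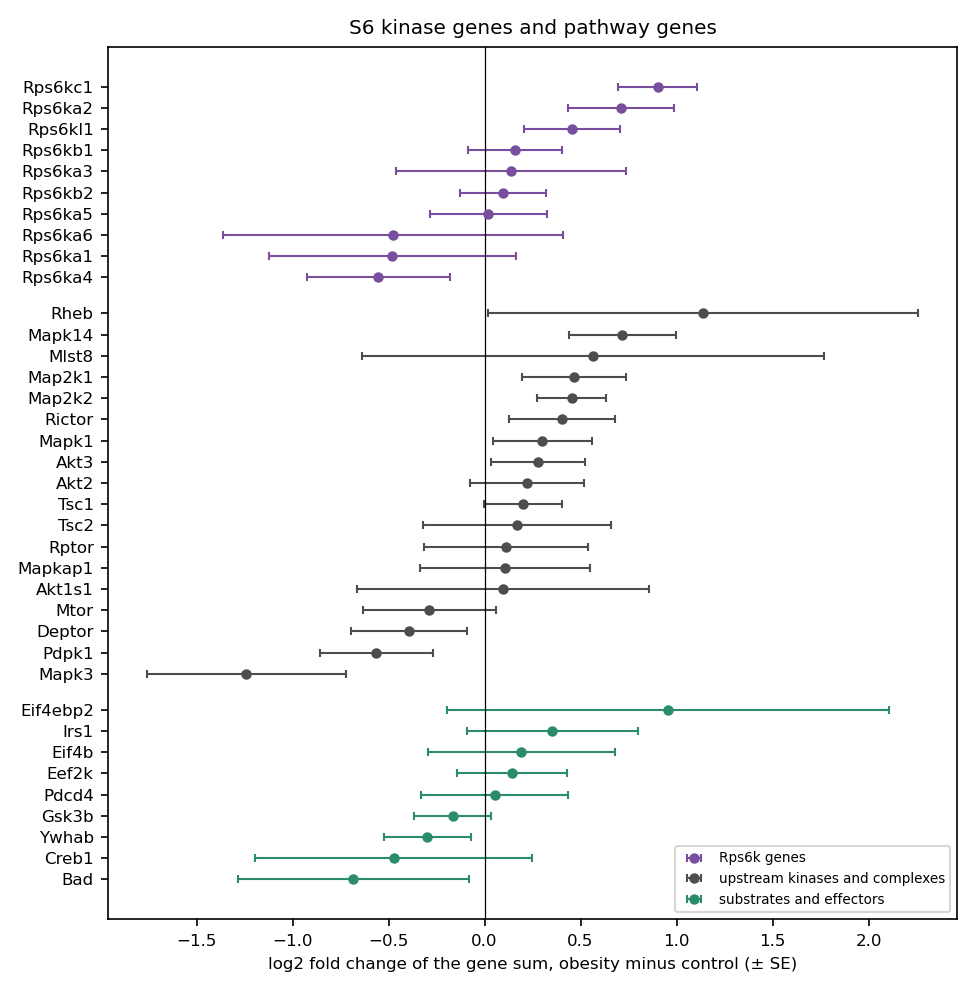
Log2 fold changes of gene sums, obesity minus control (horizontal axis), with SE bars, for the 10 Rps6k genes (purple), 18 upstream genes (grey) and 9 substrates and effectors (green). Among the Rps6k genes Rps6kc1 is farthest to the right at 0.90 and Rps6ka4 farthest to the left at -0.55, and the wide bars belong to genes of few reads such as Rheb at 1.14 (SE 1.12).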

How the data were processed

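The deposited table held unscaled read counts for each polyadenylation site. Per the submitters' processing notes the reads were mapped with Bowtie2 2.2.3 and the build was Rnor_6.0. How sites were clustered, filtered and assigned to genes, and whether internal priming was removed, is not given in the sources used here. The lowest site total was 30 reads. An unnamed line holding 1710888 reads, the total of control library 1, was left out. Sites were grouped into genes by the gene identifier alone, and 273 sites had a mark in the symbol. The text linked to the series describes another exposure, so groups came from the labels alone.

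Counts of a gene were summed over its sites on the strand with most of its reads (48 of 52 member sites). They were tested with edgeR 4.0.16 (robust quasi-likelihood fit, TMM) under R 4.3.3. P-values were adjusted by Benjamini-Hochberg over the 12255 genes or 73922 sites, with a threshold of 0.1. Site usage was tested with diffSpliceDGE. Alternatives were DESeq2 1.42.0, other scaling and filters, both strands, the library number as a block, and each library left out. The procedure was run on simulated counts, with changes larger than those of the Rps6k gene sums. The simulated libraries were independent, so that run does not cover differences of this size or likeness between same-numbered libraries. Exact permutation tests used scipy 1.17.1. Reads carry no molecular identifiers, so amplified copies could not be told from separate molecules. The spread between libraries can therefore reflect library preparation as well as counting and differences between rats.

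Members, pathway genes and marker lists were chosen with earlier results of these data known. The text names each member. Sites set for naming were the most abundant of each member and those with at least 10% of its reads. Other sites were added with at least 40 reads and an unadjusted p under 0.05. Some of these sites, in Rps6ka1, Rps6ka3, Rps6ka5 and Rps6ka6, were refitted but are not described singly. Of the pathway list it names genes with an unadjusted p under 0.05 and the 2 highest and 2 lowest log2 fold changes with a mean of at least 10 CPM. Rheb, the genes around Rps6kc1 and the sites of the libraries numbered 2 were added after their values were seen. Deviations from the group mean correlated at 0.33, 0.285, 0.224 and 0.277 between same-numbered libraries and at -0.174 to 0.0468 otherwise. Each same-numbered correlation was over 0.1, which met the criterion for pairing. The reported tests had no block, so their p-values leave this pairing out. With the block 34 of 12255 genes passed the threshold, against 0 without it. Values with the library number as a block are given where they change a call and for some named genes and sites. The lowest chi-square between libraries was 2.86 per site, for control library 2 and obesity library 2, and was above sampling noise. Control library 4 and obesity library 4 came next at 3.98. The lowest pair within a diet, control libraries 3 and 4, had 4.07. The same-numbered pairs 3 and 1 had higher values, at 5.14 and 5.93. All 8 libraries were counted as separate rats, and what same-numbered libraries share was not tested.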

Additional observations from a re-analysis of the deposited data

Results flagged for a closer look

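In 130 checks of a library against the other 3 of its group, 3 values lay apart by Dixon's criterion, where chance gives about 6. The Rps6ka3 site starting at 37486909 had 10.1 CPM in obesity library 4, against 2.83 to 3.54 CPM in the other obesity libraries. The gene sum of Rheb, which encodes a small GTPase of growth signalling, was 13.8 CPM in obesity library 2, against 1.36 to 2.93 CPM. The gene sum of Irs1, an insulin receptor substrate that S6K1 phosphorylates, was 9.01 CPM in obesity library 1, against 19.3 to 21.1 CPM. Rps6kc1 had no such value.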

How the results depend on the processing

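The counts of members, pathway genes, member sites and members in site usage past the threshold were 0, and with each library left out they ranged from 0 to 0. Members called became 1, Rps6kc1, with the replicate block, with DESeq2 and with both strands and the replicate block. All genes called went from 0 to 34 with the replicate block, 15 with both strands and the block, and 4 with DESeq2, and ranged from 0 to 1 with a library left out (1 without obesity library 2). All sites called went from 1 to 4 with the block, 10 with DESeq2 and 0 with edgeR's expression filter, and ranged from 0 to 1 with a library left out. Genes called for site usage went from 0 to 1 with the block. The block changed no other call. The log2 fold change of Rps6kc1 kept its direction in all 17 alternatives (0.78 to 0.96). Rps6kc1 was chosen for groups without overlap, so nothing is read from this. Of 568 refits of 42 named genes and sites, 540 kept their direction and 28 changed sign. Apart from the 3 refits of Rps6kc1 just named, 0 crossed the threshold.

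With a library left out, the log2 fold changes that changed sign ranged from -0.10 to 0.39 for the Rps6ka3 sum and from -0.10 to 0.18 for the Rps6ka5 sum. For sites, named by their start, the ranges were -0.23 to 0.57 for Rps6ka1 152078212 (-0.11 with the block), -1.19 to 0.0020 for Rps6ka2 53309320, -0.32 to 0.34 for Rps6ka2 53452819, -0.019 to 0.87 for Rps6ka3 37486909, -0.16 to 0.67 for Rps6ka5 124717874, -0.16 to 0.14 for Rps6kb2 219406182 and -0.11 to 0.25 for Rps6kl1 108969264. For Rps6kb1 they were -0.078 to 0.39 at 73824743, -0.34 to 0.34 at 73825037, -0.0098 to 0.39 at 73827350 and -0.023 to 0.60 at 73863329. The cause was not tested. Member sites held a median of 61 reads, but the Rps6kb2 site starting at 219406182 held 901, the most of the family. Without a block and with all libraries, the log2 fold change of that site was 0.01.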

Other observations

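The pattern of the Rps6kb1 and Rps6kb2 sites seen in the libraries numbered 2 was counted over all 73922 sites. Sites where a control and an obesity library together held at least 90% of the reads, and each at least 20%, numbered 72, 211, 99 and 253 for the same-numbered pairs 1 to 4, and 0 to 5 for pairs of different numbers. This was chosen after the member sites were seen, and what the numbers share was not tested.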
